A study of Cavia porcellus with 10 samples.

Results

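The 6 genes described here, COL1A1, COL1A2, COL3A1, COL5A1, COL5A2 and COL5A3, encode the chains of collagens I, III and V, and were taken by symbol from a table of 17642 gene lines of the sclera. Each of the 6 stood on 1 line, and all 6 passed the filter on low counts. The libraries came from whole scleral tissue, the outer coat of the eye, of male guinea pigs (Cavia porcellus) aged 2 to 3 weeks. In the myopia group, 5 eyes came from animals whose both eyes were made nearsighted by lenses, and in the control group 5 eyes came from untreated animals. The sources used here do not state strain, lens power, duration of lens wear or which animal an eye came from. Some eyes may therefore share an animal, and a p-value reflects the spread among these libraries, which may be smaller than that among animals. The sources give no measurement of eye length or refraction for the sequenced eyes.

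Collagen fibrils give the sclera its strength. Collagen I, the bulk of the fibril, is a heterotrimer in which COL1A1 chains outnumber the COL1A2 chain. Collagen III (COL3A1 only) is a homotrimer that joins collagen I in mixed fibrils, and collagen V, assembled from COL5A1 with COL5A2 and in some tissues COL5A3, sits inside the fibril, starts its assembly and limits its width. Thinning of the sclera with loss of collagen I is a known feature of myopic eyes in mammals.

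COL1A1, COL3A1 and COL5A1 fell in the myopic sclera, COL5A2 rose, and COL1A2 and COL5A3 did not pass the test. Within a library, COL1A1 therefore lost ground to its partner COL1A2, and COL5A1 to its partner COL5A2. Of the 6 genes 3 fell, where 35.1% of all 14683 genes tested fell, and 1 rose, where 36.9% of all genes rose. In either direction 71.9% of all genes passed, so a call alone does not set a collagen gene apart in these data. Counts were tested with edgeR's quasi-likelihood test, Benjamini-Hochberg adjusted p-values under 0.05 over the whole table were called, and levels are CPM, each count divided by the TMM-scaled size of its library. In bulk tissue, fewer cells of a type and less RNA per cell cannot be told apart.

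The libraries held 32309258 to 35430797 counts each, and COL1A1 and COL1A2 were the first and second most counted genes in all 10 libraries. On the first principal component of log2 CPM, which held 77.1% of the variance, the myopia libraries scored 61.5 to 72.5, and of the control libraries numbers 4 and 5 lay nearest to them, at -49.7 and -24.6, with the other control libraries at -94.6 to -81.5. Ribosomal protein genes held 4.36% to 4.87% of the counts in lines with a gene symbol in myopia and 7.17% to 10.3% in control. Of 10 fibroblast markers 3 rose and 5 fell, with a summed level of 10387 to 17101 CPM in myopia and 14354 to 16348 CPM in control. All 4 red blood cell markers fell, summing to 100.1 to 456 CPM in myopia and 2504 to 10560 CPM in control. Skeletal muscle markers (5 of 8 fell) summed to 1495 to 3605 CPM in myopia and 2450 to 6629 CPM in control, and photoreceptor markers (5 of 7 fell) to 39.6 to 206 CPM in myopia and 193 to 357 CPM in control. Pigment cell markers (2 of 8 rose and 3 fell) summed to 48.3 to 221 CPM in myopia and 146 to 430 CPM in control, and leukocyte markers (1 of 6 rose and 4 fell) to 157 to 214 CPM in myopia and 315 to 423 CPM in control. Cartilage markers (2 of 7 rose and 2 fell) summed to 363 to 439 CPM in myopia and 454 to 594 CPM in control, and endothelial markers (2 of 5 rose and 1 fell) to 677 to 1043 CPM in myopia and 852 to 1049 CPM in control. Osteoblast markers (1 of 5 tested fell) summed to 29.5 to 46.2 CPM in myopia and 41.3 to 54.4 CPM in control, and those of surface epithelium (1 tested, which did not pass) to 0.808 to 1.66 CPM in myopia and 0.990 to 1.74 CPM in control. No marker was at 0 in all 10 libraries, and the epithelial keratins KRT4 and KRT12 averaged under 0.1 CPM. The part of these differences in the collagen results was not tested.

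COL1A1 encodes the alpha-1 chain of collagen I. It stood at 37728, 39732, 33878, 31353 and 35081 CPM in myopia libraries 1 to 5, against 94211, 81149, 82745, 86899 and 68637 CPM in control libraries 1 to 5. Every myopia library lay below every control library, and the lowest control value was that of control 5. The log2 fold change was -1.22 ± 0.15 (SE; adjusted p = 8.04e-06). The groups did not overlap for 3 of the 6 collagen genes (COL1A1, COL3A1 and COL5A1), each lower in myopia. Among all genes tested 57.8% did not overlap, 28.0% with myopia lower and 29.8% with myopia higher.

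COL1A2 encodes the partner chain of collagen I. Its values were 29401, 35815, 29962, 26057 and 31962 CPM in myopia, against 40880, 35912, 36319, 39752 and 34937 CPM in control. The groups overlapped through 1 library, since myopia 2 lay above control 5. The log2 fold change of -0.29 did not pass (adjusted p = 0.0713), and its 95% interval, from -0.59 to 0.004, covered both a drop of that size and no difference. With libraries scaled by total count alone the estimate turned to 0.15. DESeq2 (adjusted p = 0.00278), limma-voom with sample quality weights (adjusted p = 0.0249) and the fits without control 5 (adjusted p = 0.0421) or without myopia 2 (adjusted p = 0.0461) called it lower.

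COL3A1, listed as Col3a1, encodes the single chain of collagen III, abundant in stretchable tissues. It stood at 4939, 5113, 5545, 4027 and 4489 CPM in myopia, against 8907, 8749, 10032, 7749 and 9957 CPM in control. The groups did not overlap, and library 4 was the lowest of its group in both. The log2 fold change was -0.91 ± 0.13 (SE; adjusted p = 3.75e-05).

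Among the collagen V genes COL5A1 fell, COL5A2 rose and COL5A3 did not pass. COL5A1, the chain present in the common form of collagen V and mutated in classical Ehlers-Danlos syndrome in humans, stood at 820, 806, 689, 643 and 634 CPM in myopia, against 1262, 1061, 1269, 1279 and 1285 CPM in control. All myopia libraries were lower than the lowest control library, control 2. The log2 fold change was -0.78 ± 0.11 (SE; adjusted p = 3.73e-05).

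COL5A2, listed as Col5a2, encodes the second chain of the common collagen V trimer. It stood at 596, 709, 636, 476 and 592 CPM in myopia, against 441, 408, 435, 493 and 519 CPM in control. Here the myopia libraries were mostly the higher ones, but myopia 4 lay within the control range, below control 4 and control 5. The log2 fold change was 0.39 ± 0.12 (SE; adjusted p = 0.00905), and it grew to 0.82 with scaling by total count.

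COL5A3, the chain of a rarer collagen V trimer, was the lowest in reads of the 6 genes. It stood at 61.7, 57.5, 44.0, 72.0 and 45.7 CPM in myopia, against 49.0, 52.9, 65.6, 60.9 and 69.1 CPM in control. The groups overlapped fully, and the coefficient of variation was 20.7% in myopia and 14.2% in control. The log2 fold change of -0.08 had a 95% interval from -0.39 to 0.22 (adjusted p = 0.611), and the estimate was 0.36 with scaling by total count and 0.02 without control 4 and control 5.

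**Figure D1:**
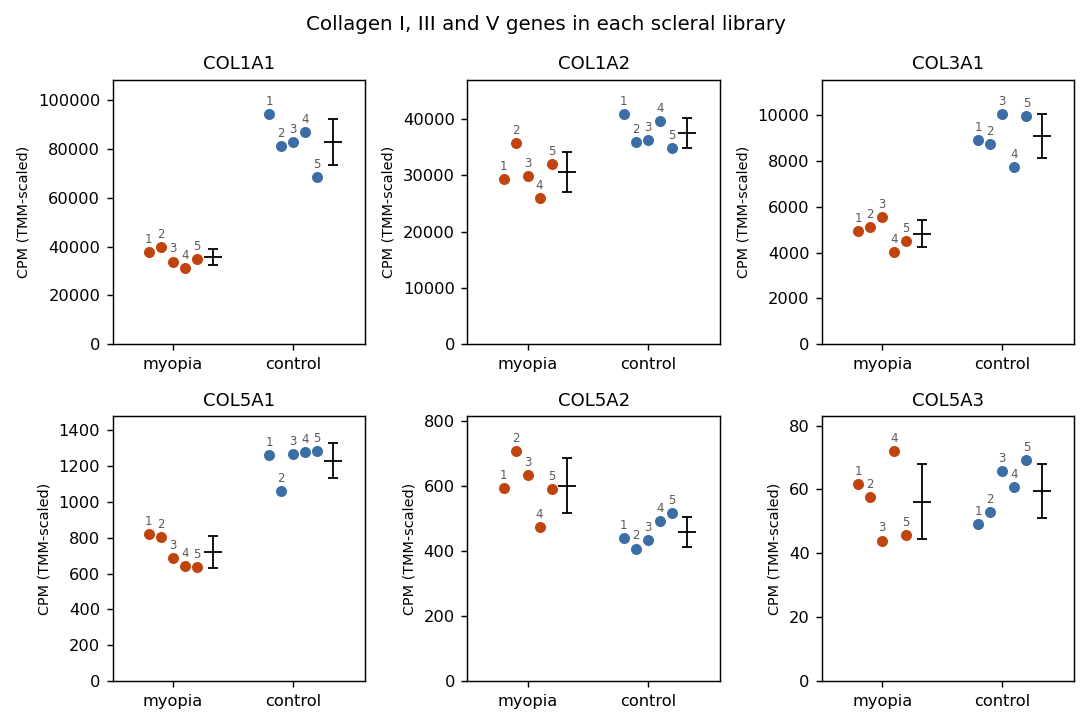
CPM (TMM-scaled, linear axis from 0) of each collagen gene in 5 myopia and 5 control libraries; points are libraries with their replicate number, and the black mark and bar are the mean ± SD. The groups separate for COL1A1, COL3A1 and COL5A1, with myopia lower, and overlap for COL1A2, COL5A2 and COL5A3.

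The size of each difference depended on the scale. So did the sign for COL1A2 and COL5A3, at -0.29 and -0.08 with TMM and 0.15 and 0.36 with total-count scaling. Neither of these genes passed on either scale. TMM factors assume that most genes do not differ, and with scaling by total count the median log2 fold change of all genes moved from 0.03 to 0.47, with 73.5% of calls higher in place of 51.2%. On that scale COL1A1, COL3A1 and COL5A1 were still called lower, by smaller amounts, with log2 fold changes of -0.77, -0.47 and -0.34 (edgeR adjusted p = 7.09e-06, 0.0027 and 0.0149). A change of scale moves all genes by nearly the same amount, so values relative to the median of all genes must nearly agree. They describe position among genes and do not test the choice of scale. On the TMM and total-count scales (log2) they were -1.25 and -1.24 for COL1A1, and -0.32 on both for COL1A2. For COL3A1 they were -0.94 and -0.95, for COL5A1 -0.81 on both, for COL5A2 0.36 and 0.35, and for COL5A3 -0.11 and -0.12.

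**Figure D2:**
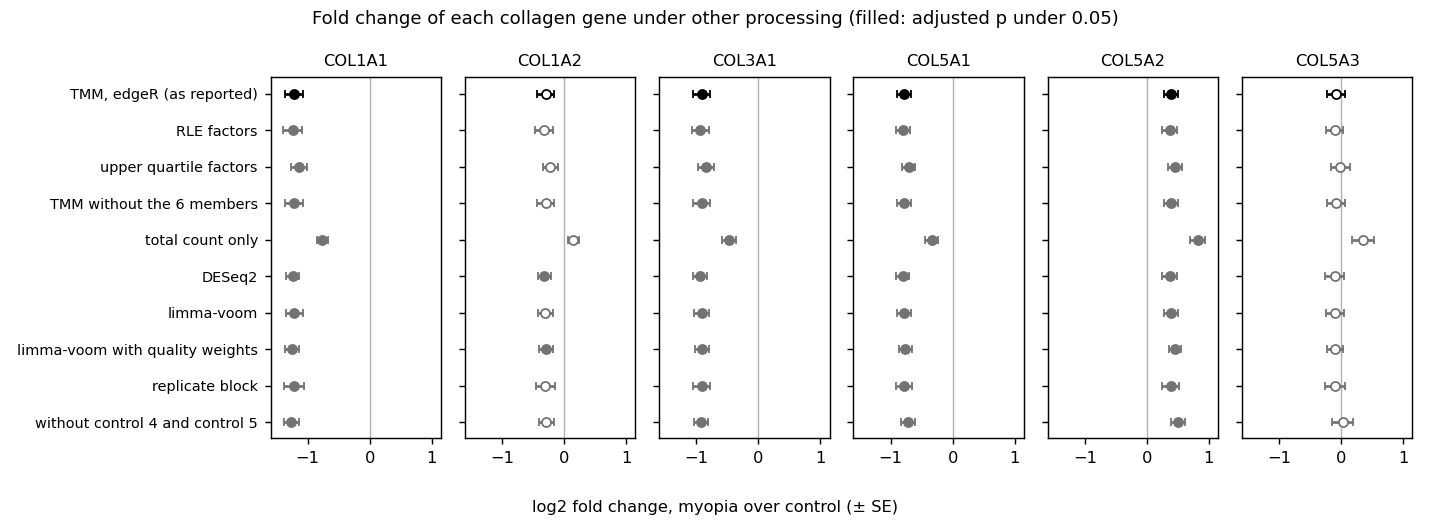
Log2 fold change of myopia over control (x axis, ± SE) for each collagen gene under 10 ways of processing (rows); filled points have an adjusted p under 0.05. Total-count scaling shifts all 6 estimates upward, to -0.77 for COL1A1 and 0.15 for COL1A2, while the other settings shown move an estimate by 0.113 at most.

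As shares of a library's counts in lines with a gene symbol, the 6 genes together held 8.44 ± 0.475% in myopia and 11.2 ± 0.600% in control (mean ± SD, n = 5 each). The ranges, 7.84% to 9.10% and 10.4% to 12.0%, did not overlap. COL1A1 held 4.15 ± 0.237% in myopia and 7.05 ± 0.458% in control. COL1A2 held 3.57 ± 0.284% in myopia and 3.21 ± 0.236% in control, so on this scale its mean was the higher one in myopia. Within the counts of the 6 genes alone, COL1A1 made up 49.1 ± 1.47% in myopia and 63.0 ± 2.02% in control, and COL1A2 42.3 ± 1.58% in myopia and 28.7 ± 1.03% in control. COL3A1 kept a similar share, 6.67 ± 0.686% in myopia and 6.99 ± 1.19% in control. These shares count reads and are not corrected for transcript length, so they do not give the proportions of molecules.

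**Figure D3:**
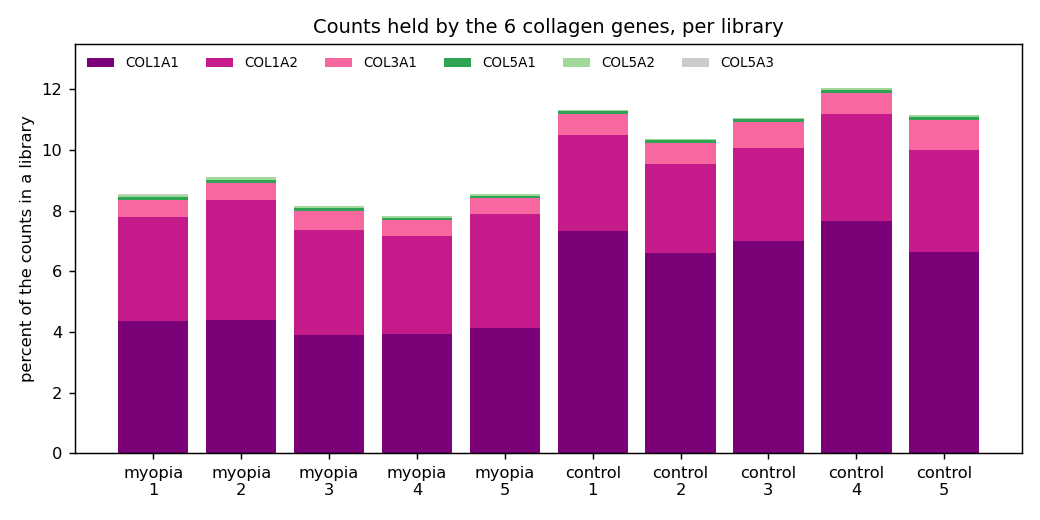
Percent of a library's counts in lines with a gene symbol (y axis, from 0) held by each of the 6 collagen genes. Bars are stacked, for the 5 myopia and 5 control libraries. The COL1A1 segment is 3.91% to 4.40% in myopia and 6.60% to 7.68% in control, while the COL1A2 segment is 3.26% to 3.97% in myopia and 2.92% to 3.51% in control.

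The ratio of the counts of 2 genes in the same library does not depend on how libraries are scaled. Of 6 such ratios, 5 differed between the groups in an exact two-sided permutation test of the mean log2 ratio, each at the smallest p that 5 against 5 libraries allow (p = 0.00794, adjusted p = 0.00952 over the 6 ratios). The ratios were chosen with earlier results of these data known, so these p-values describe separation and are not an independent test. Among all pairs of the 9481 genes with at least 10 CPM on average and a count in every library, the groups did not overlap in 61.8% of such ratios, so a separated ratio alone does not set a collagen pair apart. The count ratio of COL1A1 to COL1A2 was 1.28, 1.11, 1.13, 1.20 and 1.10 in myopia libraries 1 to 5, against 2.30, 2.26, 2.28, 2.19 and 1.96 in control libraries 1 to 5. The groups lay far apart relative to their spread, and control 5 was the control library nearest to myopia. The difference in the log2 ratio was -0.92, with an SD of 0.09 within each group.

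Inside collagen V the ratio of the main chains also shifted. The count ratio of COL5A1 to COL5A2 was 1.38, 1.14, 1.08, 1.35 and 1.07 in myopia, against 2.86, 2.60, 2.92, 2.59 and 2.48 in control, a log2 difference of -1.17. The COL5A3 to COL5A1 ratio was 0.0753, 0.0713, 0.0639, 0.112 and 0.0722 in myopia, against 0.0388, 0.0499, 0.0517, 0.0476 and 0.0538 in control, a log2 difference of 0.69. No myopia library reached the control range in either ratio. COL5A2 and COL5A3 both stood higher relative to COL5A1, whatever the scale.

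Between collagen types, COL5A2 gained on COL1A2, with ratios of 0.0183 to 0.0212 in myopia and 0.0108 to 0.0148 in control (log2 difference 0.68). COL3A1 lost against COL1A2, with ratios of 0.140 to 0.185 in myopia and 0.195 to 0.285 in control (log2 difference -0.62). Against COL1A1 it did not pass: the ratio was 0.128 to 0.164 in myopia and 0.0892 to 0.145 in control, a log2 difference of 0.30 (exact permutation p = 0.0873, adjusted p = 0.0873). Control 5 was the highest control library in this ratio, and without it the difference was 0.40 (exact permutation test, adjusted p = 0.0159). Myopia 3 was the highest myopia library, and without it the difference was 0.23 (exact permutation test, adjusted p = 0.175). Leaving out any single library other than control 5, the ratio did not pass. COL3A1 and COL5A2, which are neighbours in the human genome, moved in opposite directions.

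**Figure D4:**
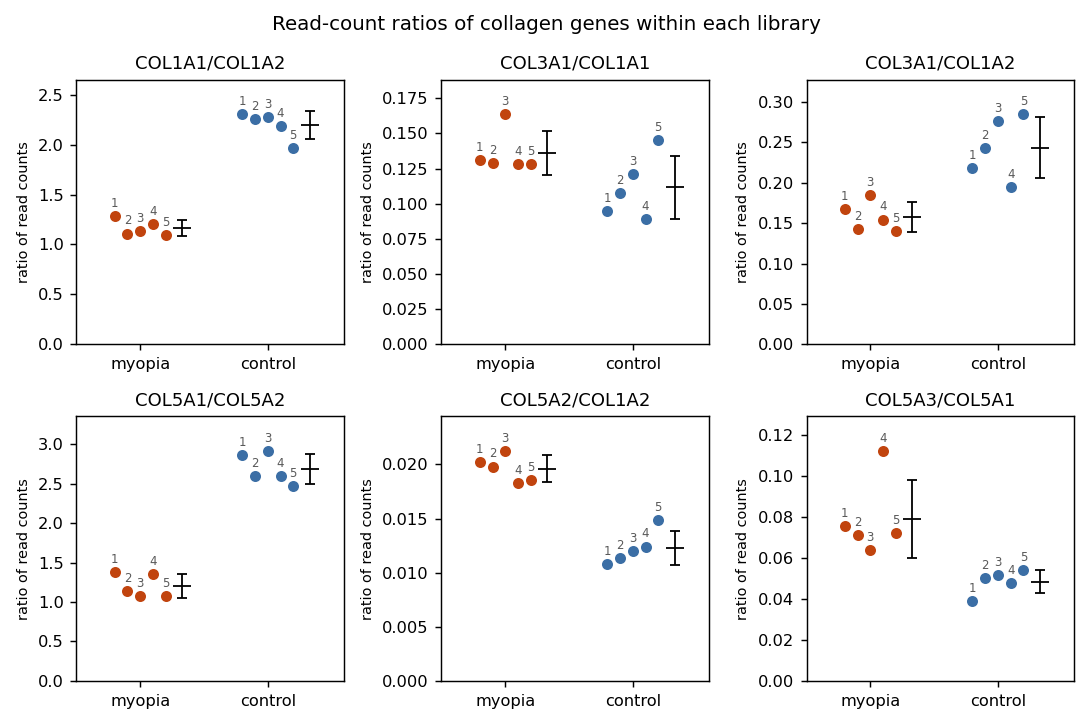
Ratio of raw counts of 2 collagen genes within a library (y axis, linear from 0) in 5 myopia and 5 control libraries; points are libraries with their replicate number, and the black mark and bar are the mean ± SD. The groups do not overlap in 5 of the 6 ratios (61.8% of all gene pairs), and overlap for COL3A1/COL1A1.

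Profiles over the 10 libraries were compared by the root mean square difference in log2 CPM, each gene relative to its own control mean, against the other 9481 genes with at least 10 CPM on average. COL1A2 lay at a distance of 0.65 from COL1A1, and 3852 genes lay nearer to COL1A1 than its partner chain did. Nearest to COL1A1 were SLC35B1, a carrier of the endoplasmic reticulum membrane, CKAP4, a membrane protein of the same compartment, and ADAMTS2, the protease that removes the N-propeptide of procollagens, at distances of 0.09 each. COL3A1 and COL5A1 were the closest pair of the 6, at a distance of 0.18, with 168 genes nearer to COL5A1 and 81 nearer to COL3A1.

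Nearest to COL3A1 were the lysosomal protease gene LGMN, the ephrin receptor gene EPHB2 and the mitochondrial enzyme gene PCK2 (distances of 0.11, 0.11 and 0.12). Nearest to COL5A1 was ZNF469, mutated in brittle cornea syndrome in humans (distance 0.08), which averaged 17.1 ± 1.76 CPM in myopia and 30.5 ± 2.32 CPM in control, followed by MARVELD1 and the clock gene CRY2 (0.10 each). COL1A2 was closest to FBXW2, the disulfide isomerase gene PDIA3 and EXOSC3 (0.05, 0.07 and 0.07), COL5A2 to DPM1, FBH1 and the cargo receptor gene CNIH4 (0.07 each), and COL5A3 to PTPRS, the calcium channel gene ITPR3 and TNRC18 (0.15 each). These distances describe the 10 libraries, which share the difference between the groups.

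Around the 6 genes, 98 genes that regulate, fold, export, trim, assemble, bind or break down collagen were tested, of 105 listed. Of these 34 rose and 43 fell, beside 36.9% and 35.1% of all genes. With scaling by total count 53 rose and 29 fell, and on that scale 52.0% of all genes rose and 18.7% fell, which is the background for each total-count pair of counts given for a single list. Their median was -0.09 on the log2 scale, beside 0.03 for all genes.

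Of the 5 other fibrillar collagens, 3 rose and 1 fell, and the median of their log2 fold changes was 1.23. COL24A1 averaged 24.1 ± 2.79 CPM in myopia and 6.65 ± 1.40 CPM in control, and COL27A1 59.6 ± 12.6 CPM in myopia and 25.5 ± 3.07 CPM in control. COL11A1, whose chain resembles COL5A1 and can combine with collagen V chains, averaged 1001 ± 144 CPM in myopia and 406 ± 103 CPM in control. The cartilage collagen gene COL2A1, named after its value was seen, was the 1 that fell, with a log2 fold change of -0.81 ± 0.19 (SE), a call that ended with scaling by total count.

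Among 18 regulators of collagen I genes 11 rose and 6 fell (12 and 2 with scaling by total count). CREB3L1, a membrane-bound transcription factor that activates COL1A1 in bone-forming cells of the mouse, averaged 86.5 ± 7.37 CPM in myopia and 245 ± 37.7 CPM in control (log2 fold change -1.50). TGFB1, the growth factor best known to induce collagen I, averaged 27.7 ± 2.82 CPM in myopia and 64.5 ± 7.44 CPM in control. TGFB2, another ligand of the same receptors, which was named like those receptors after its value was seen, rose and stood at 113 ± 8.65 CPM in myopia and 47.5 ± 16.8 CPM in control. Both receptor genes also rose, TGFBR1 with a log2 fold change of 0.95 ± 0.13 (SE) and TGFBR2 with one of 0.69 ± 0.14 (SE). SMAD2, which carries the TGF-beta signal to the nucleus, rose by 1.05 ± 0.09 on the log2 scale (SE).

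Of 19 hydroxylases and chaperones of the endoplasmic reticulum 13 fell and 5 rose, with a median of -0.93 (-0.47 with scaling by total count, where 12 fell and 6 rose). COLGALT1, which adds galactose to collagen, P4HB, which forms part of the enzyme that hydroxylates proline, and PLOD3, which hydroxylates lysine, had log2 fold changes of -1.03 ± 0.11, -0.91 ± 0.10 and -0.93 ± 0.11 (SE). The 5 that rose, named after their values were seen, were P4HA1, PLOD2, P3H2, FKBP14 and TMEM38B. Their log2 fold changes were 0.47, 0.99, 0.56, 3.18 and 1.93. In the export machinery 3 of 11 rose and 3 fell (8 and 2 with scaling by total count). SEC13, a coat subunit of export vesicles, and PREB, which activates the coat, had log2 fold changes of -1.26 ± 0.12 and -0.70 ± 0.09. SEC23A, another coat subunit, rose by 2.30 ± 0.46, and by 3.55 without control 4 and control 5.

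Of 12 trimming and cross-linking genes 5 fell and 3 rose (3 and 5 with scaling by total count). LOXL1, a lysyl oxidase, averaged 192 ± 15.1 CPM in myopia and 474 ± 36.0 CPM in control, and ADAMTS2 245 ± 39.1 CPM in myopia and 549 ± 46.5 CPM in control. PCOLCE, an enhancer of the C-proteinase, averaged 1164 ± 119 CPM in myopia and 2842 ± 612 CPM in control. The lysyl oxidase genes did not move together, and those other than LOXL1 were named after their values were seen. LOX rose without overlap of the groups, with a log2 fold change of 1.77 ± 0.30 (SE). LOXL2 fell by less than LOXL1, with a log2 fold change of -0.33 ± 0.11 (SE), and LOXL3 and LOXL4 did not pass. Of 16 genes of the fibril surface 6 fell and 5 rose (4 and 10 with scaling by total count). BGN (biglycan) had a log2 fold change of -1.71 ± 0.17, while ASPN (asporin), which binds collagen I, and KERA (keratocan), a proteoglycan of the cornea and sclera, rose by 1.41 ± 0.12 and 1.86 ± 0.22.

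Among 9 collagen receptors 4 rose and 3 fell (6 and 1 with scaling by total count). DDR2, a receptor tyrosine kinase for fibrillar collagen, averaged 291 ± 33.3 CPM in myopia and 106 ± 15.1 CPM in control. The integrin chains ITGA1 and ITGA2 averaged 36.7 ± 4.12 and 25.3 ± 5.49 CPM in myopia, against 3.06 ± 1.72 and 2.76 ± 1.30 CPM in control. Of 8 breakdown genes and protease inhibitors 6 fell and the others did not pass (5 fell and 2 rose with scaling by total count). TIMP3 and TIMP1, inhibitors of metalloproteinases, and PEPD, which recycles proline from collagen fragments, had log2 fold changes of -0.95 ± 0.10, -1.35 ± 0.16 and -0.79 ± 0.10. The metalloproteinases tested fell as well, and were named after their values were seen. MMP2 and MMP14 had log2 fold changes of -0.74 ± 0.15 and -0.69 ± 0.16. MMP9, a gene of few reads, averaged 0.561 CPM in myopia and 3.19 CPM in control. TIMP2 and the protease gene CTSK did not pass. The interstitial collagenases MMP1, MMP8 and MMP13 were too low to be tested.

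**Figure D5:**
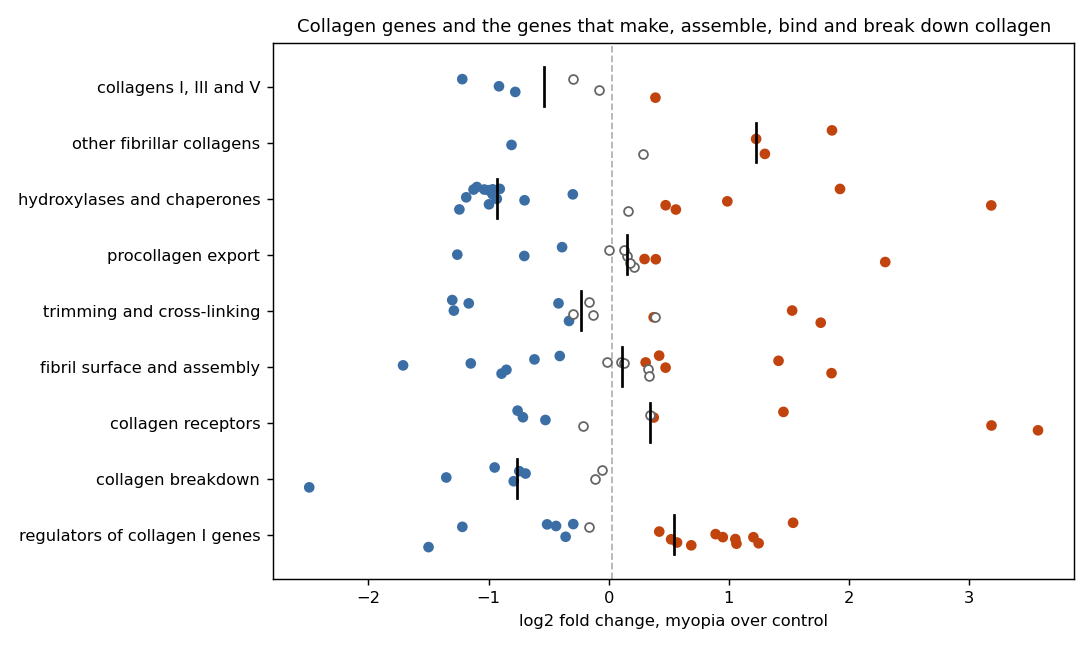
Log2 fold change of myopia over control (x axis) for the 6 collagen genes (top row) and 8 lists of related genes; each point is a gene, red or blue where it passed an adjusted p of 0.05 as higher or lower and open where it did not, the black bars are medians and the dashed line is the median of all genes. Medians range from -0.93 for hydroxylases and chaperones to 1.23 for the other fibrillar collagens.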

How the data were processed

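The authors deposited raw read counts in lines named by gene symbol, 1 column per library. The 17642 lines with a symbol hold 16421 distinct symbols, ignoring case, so some symbols stand on several lines; lines were not summed but tested separately, and a symbol stands for its line with the highest mean. Libraries were made from total RNA with a SMARTer mRNA kit, per the labels' protocols. The submitters' processing notes name the mouse builds GRCm38 and mm10 with no role; for aligner, counter, annotation, strand use and the treatment of reads matching several genes, the sources used here state nothing. Collagen genes share repetitive coding sequence, so the levels could carry some exchanged reads, and no coordinates, lengths or sequences are given. Of 18079 lines, 437 without a symbol (0.751% to 0.824% of counts in myopia and 1.18% to 1.69% in control) were left out. With filterByExpr (minimum count 10, minimum total 15), 14683 of 17642 lines were tested in edgeR 4.0.16 (R 4.3.3; TMM, glmQLFit with robust dispersion, glmQLFTest, group only). Standard errors are the log2 fold change over the square root of F. Replicates of a group differed by more than sampling noise (chi-square over degrees of freedom from 18.1 to 117). The fit was tested on simulated data. There, 76 of 99 genes with a 2-fold change and 96 of 98 with a 4-fold change were called. None was called in the wrong direction, and 3 of 14132 unchanged genes were called. Few genes changed in that simulation, in both directions alike, so it cannot speak to scaling where most genes differ. Lists are described by counts and medians.

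The 6 genes, the lists and the ratios were chosen with earlier results of these data known. All 6 are named; from each list, at most 3 genes past the threshold with the smallest p; and the 3 nearest profiles of each gene. Alternatives were RLE, upper quartile and total-count scaling, TMM without the 6 genes, other filters, DESeq2 1.42.0, limma 3.58.1 (voom), no robust estimation, a replicate block, summed lines of a symbol, and libraries left out. Same-numbered libraries of the groups did not deviate together (correlations of -0.13 to 0.01), so no pairing by number was seen. So few correlations cannot exclude one.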

Additional observations from a re-analysis of the deposited data

Results flagged for a closer look

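In 2 of 24 groups of 5 values examined, 1 library lay far from the others of its group by Dixon's ratio of the gap to the range (critical value 0.71); chance alone gives about 1 in 20. For the log2 count ratio of COL3A1 to COL1A1 in myopia, myopia 3 stood apart, at a count ratio of 0.164 beside 0.128 to 0.131 in the other myopia libraries (Dixon's ratio 0.907). For COL5A1 in control, control 2 stood apart, at 1061 CPM beside 1262 to 1285 CPM in the other control libraries (Dixon's ratio 0.898), and it remained above all myopia libraries, which reached at most 820 CPM.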

How the results depend on the processing

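COL1A1, COL3A1, COL5A1 and COL5A2 kept their direction and their call under all 23 alternatives run. COL1A2 was called lower with DESeq2 (-0.32) and with quality weights (-0.30) and was 0.15 with total-count scaling; without 1 library it ranged from -0.36 to -0.24 on the log2 scale, and without control 5 or myopia 2 it was called. COL5A3 turned to 0.36 with total-count scaling and to 0.0229 without control 4 and control 5. Total-count scaling also gave 2751 genes called lower in place of 5149, and 53 related genes called higher in place of 34. Tested as a difference of medians, which cannot reach a smaller p when the groups are separate, the ratios COL1A1/COL1A2, COL3A1/COL1A2, COL5A1/COL5A2, COL5A2/COL1A2 and COL5A3/COL5A1 differed by -0.999, -0.66, -1.19, 0.72 and 0.53 (exact permutation test, adjusted p = 0.0571 each). The COL3A1/COL1A1 ratio passed without control 4 and control 5 (0.33) and ranged from 0.23 to 0.40 without 1 library. A replicate block on the shared numbers changed no call among the 6 genes (COL1A1 -1.22, COL1A2 -0.30, COL5A2 0.38) and left 10103 genes called in place of 10561. Leaving out control 4 and control 5 for the related genes, and single libraries for the named ones, were alternatives chosen after the data were seen. With 5 libraries a group, the 95% interval of COL1A2 spanned 0.60 on the log2 scale.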
